A study of Mus musculus with 4 samples.

Results

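A set of 8 genes of heart excitation and calcium handling was followed in mouse hearts with and without the microRNA miR-1. They were chosen by name: the pacemaker channels Hcn2 and Hcn4, the T-type calcium channels Cacna1g and Cacna1h, the L-type calcium channel Cacna1c with its subunit Cacnb2, and the sodium-calcium exchangers Slc8a1 and Slc8a2. All 8 have a row among the 22552 gene rows of each of the 2 deposited tables. None of the 8 is a sodium channel; sodium enters the list through the exchangers and the pacemaker channels. Poly-A selected RNA of whole hearts was sequenced in 4 libraries from mice of the strain labelled Sv129. At postnatal day 2.5 (P2.5) there was 1 library of double knockouts (dKO) lacking miR-1-1 and miR-1-2, and 1 of the littermate control labelled dHET. The deposited P2.5 values name that control mir_1_hetero, so by its label it is a heterozygote and not a wild type. At embryonic day 15.5 (E15.5) there was again 1 dKO library and 1 library labelled dHET, whose column in the deposited table is headed WT. Reads of 100 bases were single in the P2.5 libraries and paired in those of E15.5. The sources used here do not say how the alleles were made or how many animals went into a library. Each group is 1 library, so no value has a replicate error and the genotypes cannot be tested within a stage.

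Heartbeats begin with a slow inward current through HCN channels in pacemaker cells; Hcn4 is the main form in the sinoatrial node and Hcn2 is found there and in working muscle. T-type channels open at more negative voltages than L-type channels, while the L-type channel brings in the calcium that triggers release from the sarcoplasmic reticulum. The exchangers carry calcium out of the cell in return for sodium; Slc8a1 (NCX1) is the heart's form and Slc8a2 (NCX2) is best known from brain. Heart and skeletal muscle make much miR-1, which represses transcripts through short stretches, mostly in 3' UTRs, that pair with its seed (bases 2 to 8).

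The exchanger Slc8a2 stood out. Its level was 4.33 times as high in the dKO library as in dHET at P2.5 and 1.72 times as high at E15.5. Among the members' annotated 3' UTRs, that of Slc8a2 was the single one to hold the full 8-base miR-1 match. Slc8a1 had no annotated 3' UTR to search. Hcn4 was 1.52 and 1.31 times as high in dKO at the 2 stages. The L-type channel Cacna1c, its subunit Cacnb2 and the T-type Cacna1g and Cacna1h lay between 0.834 and 1.09 times dHET at both stages. Of these values, that of Cacna1g at E15.5 carried a failure flag and was not counted. Outside the members, the calcium channel genes Cacna1a and Cacna1d were also at least 1.5-fold higher in dKO at both stages.

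Levels are the deposited FPKM, which count fragments per kilobase of a transcript for each 1000000 sequenced, so they can be set against each other between genes. The number of fragments behind 1 FPKM was read from the steps between low values. For P2.5 it gave scaling totals of 49500000 fragments in dKO and 44200000 in dHET. For E15.5 the totals were 103400000 in dKO and 86500000 in dHET. These need not equal the mapped reads. The 2 stages were scaled separately, so their levels are set side by side without a test. In the P2.5 pair the libraries differed in sex as well as genotype: Xist was at 50.7 FPKM in dKO and 0.101 in dHET, and the Y-linked Ddx3y was listed at 0 in dKO and stood at 11.7 in dHET. The E15.5 pair did not differ in this way, Ddx3y having 14.8 FPKM in dKO and 15.3 in dHET. Of 6 heart muscle markers, 5 were abundant in every library. For example, Tnnt2 was at 5545 (dKO) and 3314 (dHET) FPKM at P2.5 and at 2279 (dKO) and 2274 (dHET) at E15.5. Myh6 is listed at 0 in dKO and 2270 FPKM in dHET at P2.5, under the status flag HIDATA. Rows with that flag were left out here, so Myh6 cannot be read at P2.5. Markers of lung and thymus stayed at or below 0.185 FPKM. In RNA of a whole heart, fewer cells of a type and less RNA per cell cannot be told apart.

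In every library Slc8a1 was the most abundant of the 8 and Cacna1c the next. At P2.5 the order in dKO ran Slc8a1, Cacna1c, Cacna1g, Cacnb2, Slc8a2, Hcn2, Hcn4 and Cacna1h. In the P2.5 dHET library Slc8a2 was last, after Hcn2, Cacna1h and Hcn4. At E15.5 Hcn2 was last in both libraries and Slc8a2 was next to last, and Cacna1g and Cacnb2 changed places between them (15.3 and 13.0 FPKM in dKO, 14.5 and 14.6 in dHET). Cacna1g carried a failure flag at E15.5, so its place there is as listed only. With 1 library per group, no spread is available to say which neighbours in these orders differ.

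**Figure D1:**
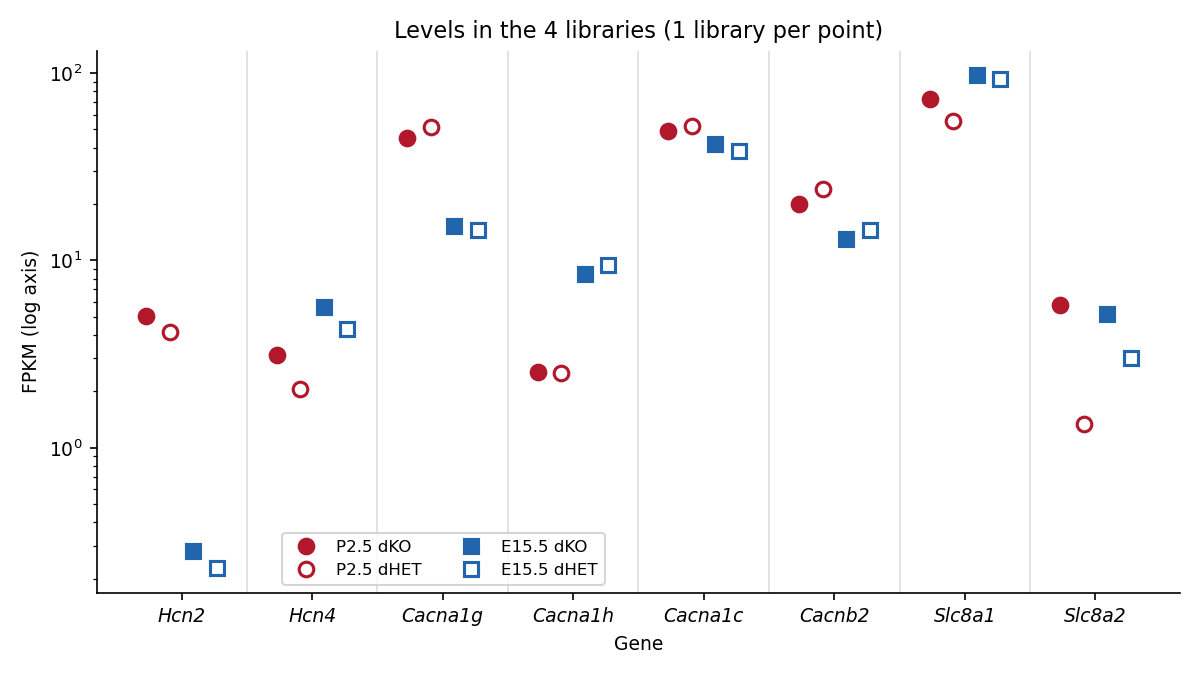
FPKM on a log axis of the 8 genes in the 4 libraries, circles for P2.5 and squares for E15.5, filled for dKO and open for dHET. Slc8a2 shows the widest gap between filled and open circles (5.80 and 1.34 FPKM), and Hcn2 the widest gap between the stages.

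Slc8a2 (NM_148946, chromosome 7, 16715649 to 16745860, build mm9) had 5.80 FPKM in dKO and 1.34 in dHET at P2.5. At E15.5 it had 5.19 FPKM in dKO and 3.01 in dHET. The dKO libraries of the 2 stages thus lay close together, above both dHET libraries. At P2.5 these levels correspond to about 1260 fragments in dKO and 259 in dHET, and the ratio of 4.33 has an exact binomial 95% interval of 3.79 to 4.98. At E15.5 they correspond to about 2350 and 1140 fragments in dKO and dHET, and the ratio of 1.72 has an interval of 1.61 to 1.85. Such intervals cover counting error only, not differences between animals. On the scale used for counting genes, log2((FPKM dKO + 1)/(FPKM dHET + 1)), which understates changes of low genes, its P2.5 change was 1.54 and its E15.5 change 0.63. Of 11703 genes counted at P2.5, 13 had a larger increase, and of 11709 at E15.5, 42 had. Slc8a2 is called significant at both stages in the authors' deposited table, with q = 1.14e-05 at P2.5 and q = 0.0345 at E15.5; these values compare 2 libraries, not genotypes. Of its neighbours, Kptn, 2784 bases away, had 13.5 (dKO) and 9.51 (dHET) FPKM at P2.5, and Meis3, 14869 bases away, had 3.98 (dKO) and 3.94 (dHET); neither reached 1.5-fold.

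The Slc8a2 3' UTR spans 1329 bases in the GENCODE M1 annotation of NCBIM37 (the assembly of mm9). It is shown at its matches because no other annotated 3' UTR of a member holds the 8-base word. Slc8a1 has no 3' UTR in this annotation and was not searched. The 8-base word ACATTCCA was searched whole and as its first and its last 7 bases. The word GGACCAA of miR-133, another muscle microRNA, was searched beside them. The search covered the transcript's strand in the longest annotated 3' UTR of each gene. Capitals mark the matched word in each window of at most 30 bases, and in the miR-133b sequence the seed.
Slc8a2, miR-1 word, UTR bases 582 to 589: cactacttctgACATTCCAgcgccctactc
Slc8a2, miR-133 word, UTR bases 930 to 936: agggtcccagaGGACCAAtgctacaagcc
Cacna1h, shifted miR-1 word, UTR bases 1519 to 1525: cccacccccatCATTCCAtcctcttaggt
Cacna2d2, 7-base miR-1 word, UTR bases 67 to 73: cctcccattccACATTCCccaatctagag
miR-133b-3p: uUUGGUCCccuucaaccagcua
The windows lie at chr7:16745100-16745129 and chr7:16745448-16745476 on the plus strand, at chr17:25511515-25511543 on the minus strand and at chr9:107429851-107429879 on the plus strand, all of NCBIM37. The microRNA is from RefSeq (GRCm38.p6, chr1:20682834-20682855, plus strand). The level of miR-133 in these hearts was not analysed here.

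Among 11696 genes with an FPKM of at least 1 at either stage and an annotated 3' UTR, 499 (4.27%) hold the 8-base word, 12.8% its last 7 bases and 8.86% the miR-133 word. Cacna1h, with the shifted 7-base word alone, had 2.55 (dKO) and 2.51 (dHET) FPKM at P2.5. Hcn2, Cacna1c, Cacna1g and Cacnb2 hold none of the 4 words in UTRs of 568, 1596, 754 and 1832 bases. The annotated Hcn4 UTR is 192 bases long, where the median of all is 1206, and Slc8a1 has none in this annotation, so little can be read there. Of the 8-base carriers, 38 of 484 (7.85%) were at least 1.5-fold higher in dKO at P2.5, beside 3.4% of all counted genes, and 9 of 491 (1.83%) at E15.5, beside 0.487%. The share at P2.5 was 6.16% among carriers of the first 7 bases, 4.30% among carriers of the last 7 and 3.30% among carriers of the miR-133 word. In the E15.5 pair these shares were 1.42%, 0.815% and 0.788%. At both stages 8 carriers of 476 (1.68%) were, against 35 of all 11270 genes counted at both (0.311%). Slc8a2 was the fifth of these 8 by the smaller of its 2 changes; the others, named after their values were seen, were Kcnmb1, Srsf9, Enpp5, the calcium-binding protein gene Sri, Tmem18, Pirt and the actin-binding Twf1. A match is a run of letters, not a shown site.

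Slc8a1 (NM_001112798, chromosome 17, 81772445 to 82137717), the main cardiac exchanger, had 72.9 FPKM in dKO and 55.6 in dHET at P2.5. Its E15.5 level was 97.1 FPKM in dKO and 93.0 in dHET. The dKO library was the higher one at both stages, by 1.31 and 1.04 times, both within 1.5-fold. The annotated Slc8a1 transcript lacks UTRs, so no counting interval is given for it. Slc8a2 made up 7.38% of the summed exchanger FPKM in dKO and 2.35% in dHET at P2.5. At E15.5 it made up 5.07% in dKO and 3.14% in dHET. Slc8a1 thus remained by far the larger transcript in all 4 libraries, at 12.6 times the Slc8a2 level in the P2.5 dKO library and 41.5 times in dHET. The third exchanger gene, Slc8a3, stayed at or below 0.299 FPKM in every library.

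Hcn4 (NM_001081192, chromosome 9, 58671319 to 58708762) had 3.14 FPKM in dKO and 2.06 in dHET at P2.5. The E15.5 libraries had 5.65 FPKM in dKO and 4.32 in dHET. It was higher in dKO in both pairs, by 1.52 times (counting interval 1.33 to 1.75) and 1.31 times (1.22 to 1.40). On the log2(FPKM + 1) scale the changes were 0.44 and 0.32, under the 1.5-fold used for counting. In the authors' deposited table its p-value was 0.108 for P2.5 and 0.0646 for E15.5, and it is not called at either stage. Other markers of the sinoatrial node and conduction cells are given beside it, their part in its level not having been tested: of 10 listed, 7 were counted at each stage, 0 were 1.5-fold higher and 1 was lower. Their summed FPKM was 31.5 in dKO and 36.8 in dHET at P2.5, and 56.4 in dKO and 66.8 in dHET at E15.5. Id2 and Smoc2 made up most of each of these sums. The nodal transcription factor genes Shox2 and Isl1 lay below 0.65 FPKM in all 4 libraries, too low to count. Shox2 had 0.579 in dKO and 0.197 in dHET at P2.5, the direction of Hcn4. At E15.5 it had 0.266 in dKO and 0.559 in dHET, the opposite direction.

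Hcn2 (NM_008226, chromosome 10, 79179379 to 79198853) had 5.05 FPKM in dKO and 4.17 in dHET at P2.5. At E15.5 it had 0.283 FPKM in dKO and 0.228 in dHET, from about 94 and 63 fragments, and was not counted there. Its ratio of 1.21 at P2.5 was within 1.5-fold, and that of 1.24 at E15.5 has a counting interval, 0.897 to 1.75, that holds 1. The ratio of the pacemaker channels within a library differed more between stages than between genotypes. Hcn2 was at 1.61 (dKO) and 2.02 (dHET) times the Hcn4 level at P2.5, and at 0.0501 (dKO) and 0.0527 (dHET) times at E15.5. Such ratios are taken within a library, so the separate scaling of the stages cancels in them, though not the difference between single and paired reads. Hcn3, of the same family, stayed at or below 0.227 FPKM in every library.

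For the T-type channels the ratio within a library also differed more between stages than between genotypes. Cacna1g (NM_001112813, Cav3.1, chromosome 11, 94269705 to 94335512) had 45.2 FPKM in dKO and 51.6 in dHET at P2.5. At E15.5 its row listed 15.3 FPKM in dKO and 14.5 in dHET, under a flag for a failed estimate of the authors' program, so it was not counted there. Cacna1h (NM_001163691, Cav3.2, chromosome 17, 25507498 to 25570728) had 2.55 FPKM in dKO and 2.51 in dHET at P2.5. Its E15.5 level was 8.45 FPKM in dKO and 9.43 in dHET. Cacna1g thus stood at 17.7 (dKO) and 20.6 (dHET) times Cacna1h at P2.5, and at 1.81 (dKO) and 1.54 (dHET) times at E15.5. Within a stage neither gene moved by as much as 1.5-fold between genotypes. Their ratios of dKO to dHET were 0.875 (Cacna1g) and 1.02 (Cacna1h) for P2.5. For E15.5 they were 1.05 (Cacna1g) and 0.896 (Cacna1h).

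**Figure D2:**
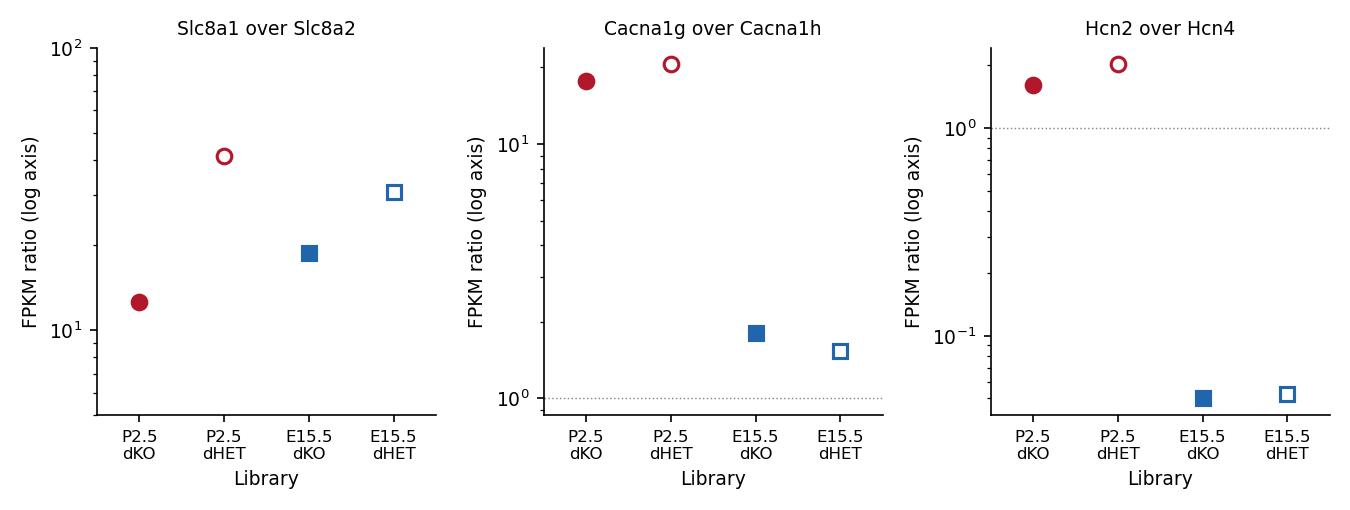
Ratio of the FPKM of paired genes within each library, on log axes, 1 point per library; circles are P2.5 and squares E15.5, filled for dKO and open for dHET. The exchanger ratio differs between genotypes (12.6 in dKO and 41.5 in dHET at P2.5), whereas the T-type and pacemaker ratios differ mainly between stages. The E15.5 T-type ratios use the Cacna1g row that carries a failure flag at that stage. Dotted lines mark a ratio of 1 where it lies on the axis.

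Cacna1c (NM_001159533, chromosome 6, 118542314 to 119171632), the pore of the cardiac L-type channel Cav1.2, had 48.9 FPKM in dKO and 52.2 in dHET at P2.5. The E15.5 libraries had 41.7 FPKM in dKO and 38.1 in dHET. The direction differed between the stages, with dKO at 0.937 times dHET at P2.5 and 1.09 times at E15.5. Cacnb2 (NM_023116, chromosome 2, 14525933 to 14908560), the subunit that brings the pore to the membrane and tunes its gating, had 20.1 FPKM in dKO and 24.1 in dHET at P2.5. At E15.5 it had 13.0 FPKM in dKO and 14.6 in dHET. It was the lower one in dKO at both stages, at 0.834 and 0.889 times, within 1.5-fold. The pore stood at 2.43 (dKO) and 2.16 (dHET) times the subunit at P2.5 and at 3.22 (dKO) and 2.62 (dHET) times at E15.5. The listed locus of Cacna1c is shared with Dcp1b (1.33 FPKM in dKO and 1.35 in dHET at P2.5); the sources used here do not say how reads on shared positions were assigned.

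All 8 members were counted at P2.5, where 1, Slc8a2, was at least 1.5-fold higher and 0 were lower; among all counted genes 3.4% were higher and 1.33% lower. The members' median change was 0.12, beside 0.066 for all genes. At E15.5, 6 members were counted, 1 of them, again Slc8a2, higher and 0 lower, against 0.487% higher and 0.726% lower among all genes. Their median was 0.094, beside -0.0078. Slc8a2 is also the single member called at either stage in the authors' deposited table, against 0.273% of tested genes called higher at P2.5 and 0.291% at E15.5. Rescaling each library to the same sum moved the median change of all genes by -0.15 (P2.5) and 0.0010 (E15.5) on the log2 scale. At P2.5 it left 295 genes higher and 552 lower, in place of 398 and 156, and centring on the median left 273 and 235. Slc8a2 stood at 1.77 and 0.74 after rescaling, and the P2.5 change of Cacna1h turned to -0.12. Leaving the flagged rows out of the sums gave shifts of -0.17 (P2.5) and -0.0065 (E15.5), with 283 genes higher and 593 lower at P2.5.

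**Figure D3:**
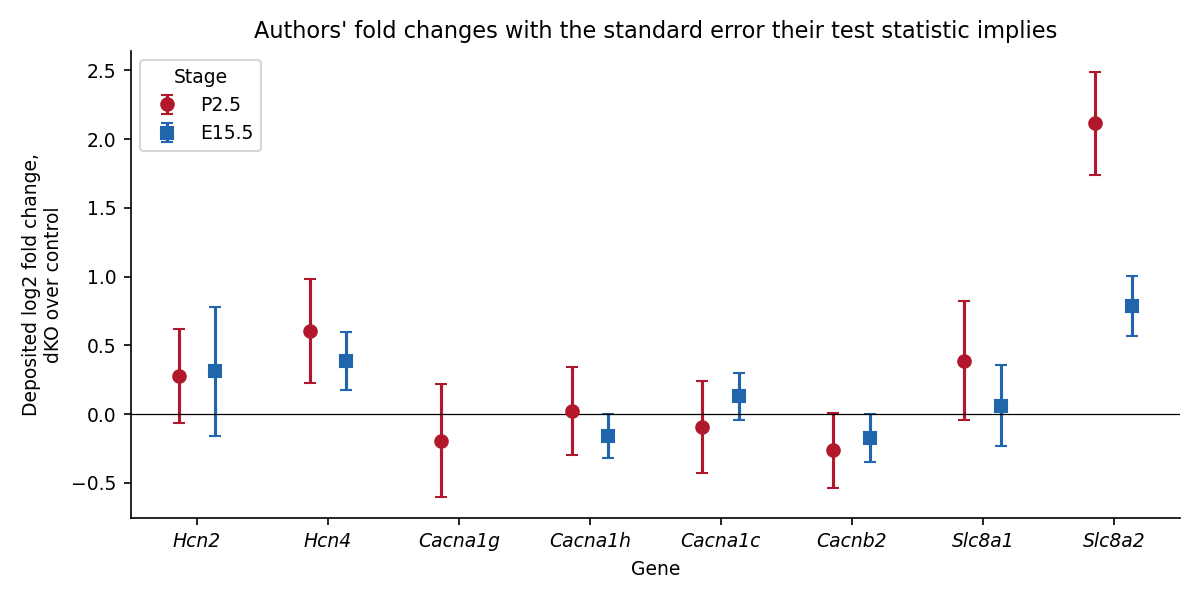
Log2 fold changes of dKO over control from the authors' deposited table, circles for P2.5 and squares for E15.5, with bars of 1 standard error as implied by the deposited test statistic; this error is a model's and not a spread between animals. Slc8a2 lies more than 3 such errors above 0 at both stages; Cacna1g at E15.5 has no deposited test and is left out.

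A test across the stages took each stage as 1 pair of libraries, in limma on log2(FPKM + 1) with stage as a term, over 11816 genes. It asks for a change shared by both stages and rests on 1 residual degree of freedom per gene beside limma's prior. Slc8a2 had the largest shared effect of the members, 1.08 ± 0.20 (SE), with an adjusted p of 0.20. Hcn4 had 0.38 ± 0.10 with an adjusted p of 0.30, and Slc8a1 had 0.22 ± 0.13 with an adjusted p of 0.53. By limma 0 members and 0 of all genes passed an adjusted p of 0.05 (0% in each direction), while 1413 genes had an unadjusted p under 0.05. When genes were limited to an FPKM of at least 5 in 2 or more libraries, 8425 genes remained and the limma adjusted p of Slc8a2 was 0.025, against 0.0885 to 0.587 under the other settings; it passed that filter through its dKO libraries alone.

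Related channel genes were taken by name from the same families. Of 39 rows, 12 were counted at P2.5, 2 of them higher by 1.5-fold and 1 lower, and 10 at E15.5, 2 of them higher and 0 lower. Their median change was -0.048 in the P2.5 pair, and in the E15.5 pair 0.0071. The higher ones were the same genes at both stages, Cacna1a and Cacna1d. Cacna1d (NM_001083616, chromosome 14, 30822186 to 31340242), the pore of Cav1.3, an L-type channel of the sinoatrial node and atria, had 3.35 FPKM in dKO and 1.62 in dHET at P2.5. Its E15.5 level was 6.56 FPKM in dKO and 3.999 in dHET. Cacna1a (NM_007578, chromosome 8, 86939263 to 87164148), the pore of the P/Q-type channel of nerve endings, had 2.06 FPKM in dKO and 0.820 in dHET at P2.5, where it was counted through dKO alone. The E15.5 libraries had 2.41 FPKM in dKO and 1.247 in dHET. In the authors' deposited table Cacna1a is called significant at E15.5 (q = 0.0077) and not at P2.5 (q = 0.080), and Cacna1d at neither stage (q = 0.65 at P2.5 and 0.12 at E15.5). Both had a limma adjusted p of 0.14, with shared effects of 0.68 ± 0.10 (Cacna1a) and 0.66 ± 0.10 (Cacna1d). Neither holds any of the 4 words in its annotated 3' UTR. Cacna1c was 14.6 (dKO) and 32.2 (dHET) times as abundant as Cacna1d at P2.5, and 6.36 (dKO) and 9.54 (dHET) times at E15.5.

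The sodium channel genes Scn7a and Scn10a were below 1.8 FPKM in every library. Cacng6, a gamma subunit gene, was the lower one at P2.5, at 2.17 FPKM in dKO and 4.15 in dHET. At E15.5 it had 1.19 FPKM in dKO and 1.82 in dHET. The alpha2-delta subunit Cacna2d1, which raises calcium channel density at the membrane, had 13.7 FPKM in dKO and 15.7 in dHET at P2.5, and 15.6 in dKO and 15.2 in dHET at E15.5. The Cacna2d2 UTR holds both 7-base miR-1 words, which overlap at UTR base 67, and 1 of them is shown above. Cacna2d2 had 1.96 FPKM in dKO and 1.39 in dHET at P2.5, and 11.2 in dKO and 10.1 in dHET at E15.5. Cacnb1, Cacnb3 and Cacng7 stayed within 1.5-fold at both stages, with Cacnb1 at 3.64 FPKM in dKO and 4.93 in dHET at E15.5.

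**Figure D4:**
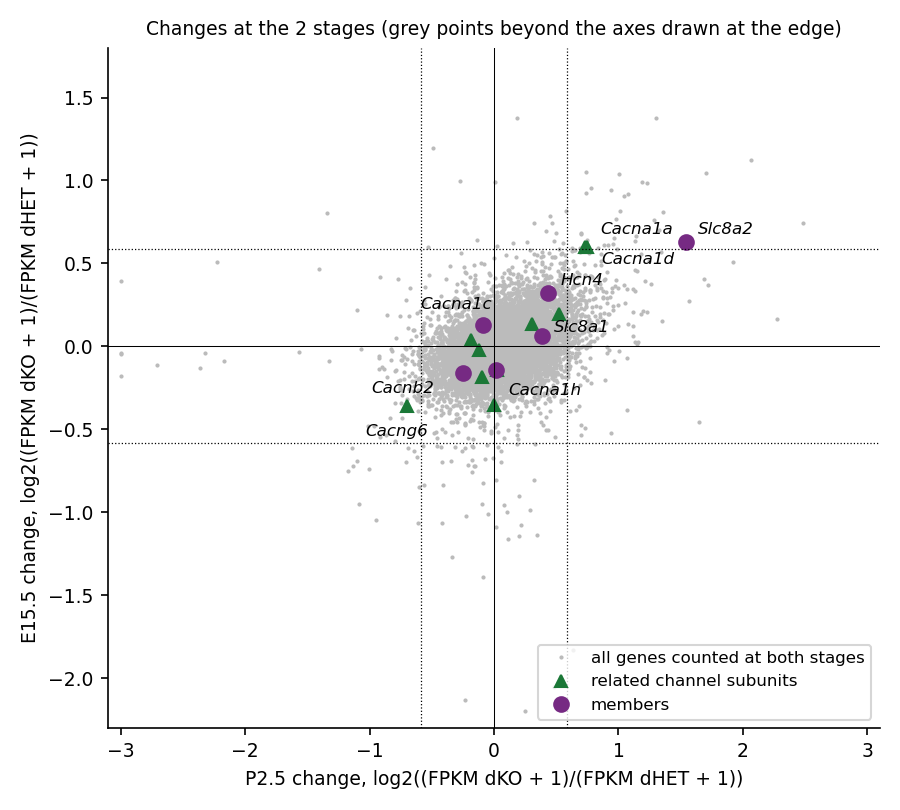
Change between dKO and dHET at P2.5 (horizontal) and E15.5 (vertical), both as log2((FPKM dKO + 1)/(FPKM dHET + 1)), for all genes counted at both stages (grey), the members counted at both (purple circles) and related channel genes (green triangles). Dotted lines mark 1.5-fold; Slc8a2 (1.54 and 0.63), Cacna1a and Cacna1d lie beyond it on both axes.

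Partners of these channels were listed by name: inhibitors and scaffolds of the calcium channel, HCN partners, and the sodium pump and other exchangers that work beside Slc8a1. Of 23, 19 were counted at each stage. At P2.5, 1 was higher and 2 were lower, beside 3.4% and 1.33% of all counted genes. At E15.5, 0 passed 1.5-fold, beside 0.487% higher and 0.726% lower among all counted genes. Slc24a3, a potassium-dependent sodium-calcium exchanger gene, had 2.71 FPKM in dKO and 1.39 in dHET at P2.5, and 3.55 in dKO and 2.73 in dHET at E15.5. Gem, a small GTPase that inhibits L-type channels and 1 of the lower ones at P2.5, had 3.52 FPKM in dKO and 5.95 in dHET at P2.5, and 3.15 in dKO and 4.19 in dHET at E15.5. Cav3, a muscle caveolin, had 93.3 FPKM in dKO and 77.8 in dHET at P2.5, and 57.3 in dKO and 45.9 in dHET at E15.5.

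Markers of other cells moved in the same libraries as Slc8a2. Atrial markers summed to 1265 FPKM in dKO and 267 in dHET at P2.5, with 4 of 6 counted genes at least 1.5-fold higher, and to 2373 in dKO and 1743 in dHET at E15.5, with 2 of 7 higher. Among them Nppa had 1021 FPKM in dKO and 182 in dHET at P2.5 and made up most of both P2.5 sums. The atrial Dkk3 had 9.50 in dKO and 9.29 in dHET at that stage. Smooth muscle markers summed to 1768 FPKM in dKO and 696 in dHET at P2.5, with 2 of 4 higher, and to 1363 in dKO and 830 in dHET at E15.5, where 1 of 5 was higher and 2 were lower. Acta2 alone made up most of each smooth muscle sum, with 1692 FPKM in dKO and 658 in dHET at P2.5. At E15.5 Acta2 was higher (1215 in dKO and 692 in dHET) but Myh11 was lower (0.915 in dKO and 6.95 in dHET). The sums therefore do not speak for the lists as a whole. The part of these markers in the Slc8a2 result was not tested. Markers of neurons and glia, cells that also express Slc8a2, Cacna1a and the T-type channels, summed to 5.004 FPKM in dKO and 6.29 in dHET at P2.5 and to 3.74 in dKO and 4.71 in dHET at E15.5. Of the 10 genes, 3 were counted at P2.5 and 2 at E15.5, with 0 of them 1.5-fold higher. Among those too low to count, the glial Sox10 had 0.251 FPKM in dKO and 0.149 in dHET at P2.5, and 0.0674 in dKO and 0.0341 in dHET at E15.5, while Th was at or near 0 in all 4 libraries.

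**Figure D5:**
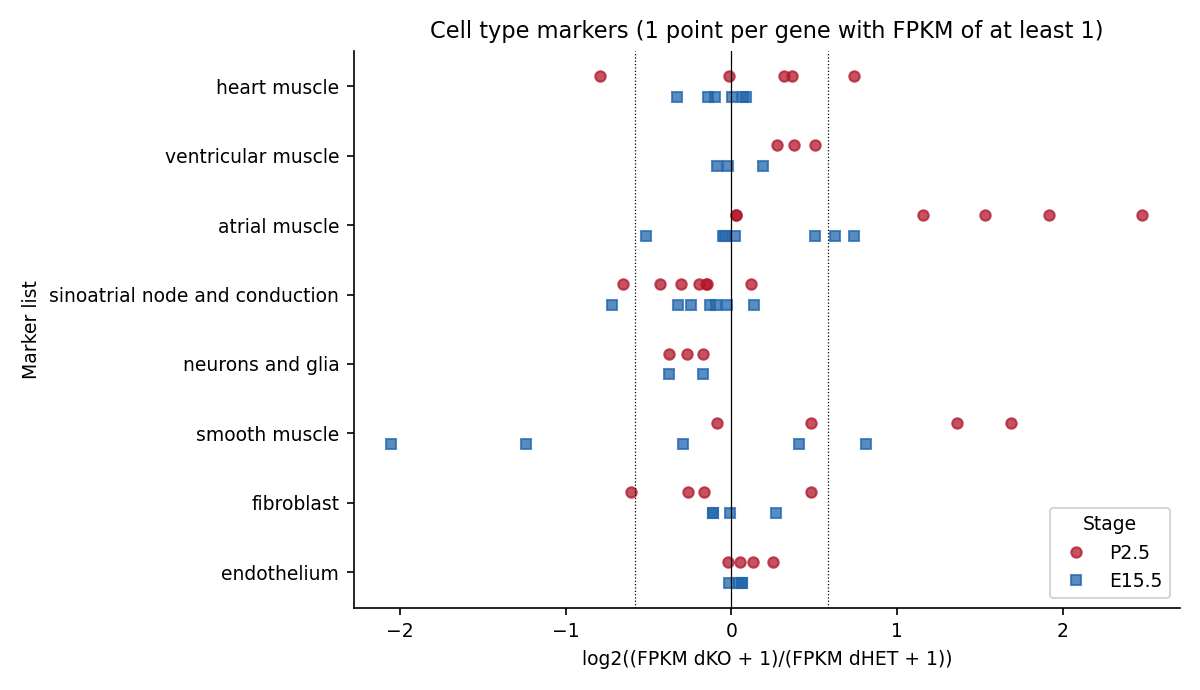
Change between dKO and dHET, as log2((FPKM dKO + 1)/(FPKM dHET + 1)), of the counted genes of 8 marker lists, 1 point per gene; circles are P2.5 and squares E15.5, and dotted lines mark 1.5-fold. Atrial and smooth muscle lists hold the points farthest to the right (Nppa at 2.48), and the sinoatrial and neuronal lists hold none beyond 1.5-fold on that side.

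The genes whose pair of changes lay nearest to that of Slc8a2, among 7150 with an FPKM of at least 5 in all 4 libraries, were 2810405K02Rik, Acta2 and Cnn1. Their distances, over the 2 within-stage changes, were 0.23, 0.26 and 0.27 on the log2 scale. Acta2 had changes of 1.36 (P2.5) and 0.81 (E15.5), and Cnn1 by 1.69 and 0.41. This likeness rests on 2 values per gene and on the added 1 FPKM, which lowers the changes of Slc8a2 more than those of abundant genes. Slc8a2 itself, at 1.34 FPKM in dHET at P2.5, would not pass that filter. As plain ratios of dKO to dHET at P2.5, Slc8a2 stood at 4.33, Acta2 at 2.57 and Cnn1 at 3.36. At E15.5 these ratios were 1.72, 1.76 and 1.33.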

How the data were processed

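Poly-A RNA of 4 whole-heart libraries was measured. The authors deposited 1 table per stage that lists FPKM, a log2 fold change, a test statistic, p-value and q-value for every gene, with a status flag; the submitters' processing notes name TopHat, Bowtie, Cufflinks and mm9, without versions. The deposited E15.5 fold change has the control on top and was inverted here. Each deposited file held 86 rows displaced by commas, which were realigned. Rows flagged as tested or as having too few fragments were used, which left out 175 rows at P2.5 and 178 at E15.5.

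Changes were computed as log2((FPKM dKO + 1)/(FPKM dHET + 1)) where either library of the stage reached an FPKM of 1, and counted at 1.5-fold. limma 3.58.1 in R 4.3.3 (trend, Benjamini-Hochberg adjustment over all genes) took genes reaching an FPKM of 1 in 2 or more libraries; it was tested on simulated data. Scaling totals came from low values, of which 87.3% to 90.7% fell within 0.2 of a whole number of fragments; fragments per gene use the longest annotated transcript and are approximate. Python 3.11.15 was used otherwise.

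All members are named. Of related families, genes reaching an FPKM of 1 in any library are named. Of partners and of each marker list, up to 3 genes per stage with the largest change qualified; Shox2, Isl1, Th, Sox10, Tnnt2, Myh6, Slc8a3 and Hcn3 were added after their values were seen, and some genes that qualified are not reported here. The members and lists were chosen with earlier results of these data known. Alternatives were other pseudocounts, filters, scalings, status flags and folds, and an adjustment for GC content and length.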

Additional observations from a re-analysis of the deposited data

Results flagged for a closer look

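The changes of Cacna1c and Cacna1h had opposite signs at the 2 stages as deposited. Cacna1c lay at -0.092 at P2.5 and 0.13 at E15.5 (log2 change of dKO over dHET), a difference of -0.22. Cacna1h lay at 0.016 at P2.5 and -0.14 at E15.5, a difference of 0.16. The P2.5 value of Cacna1h is near 0, its ratio of 1.02 having a counting interval of 0.928 to 1.11, and it took the sign of E15.5 after centring (-0.050), rescaling (-0.12, or -0.14 without flagged rows) and the GC and length adjustment (-0.085). Each direction is that of 1 pair of libraries, and the difference was not tested; both changes are within 1.5-fold at both stages.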

How the results depend on the processing

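Slc8a2 was higher in dKO at both stages under every setting tried. Its change at P2.5, 1.54, became 2.04 with a pseudocount of 0.1, 0.77 with 5 and 2.12 in the authors' deposited table, and at E15.5, 0.63, it became 0.35 with a pseudocount of 5, which left 0 members at 1.5-fold there. With the lower fold threshold tried, 3 members were higher at P2.5. Of 140 changes of members under alternatives, 5 took the other sign: Hcn2 at P2.5 with the GC and length adjustment (-0.0031, against 0.23) and Cacna1h at P2.5 in 4 settings. The limma result of Slc8a2 passed the threshold only at the filter of 5, which the gene met through its dKO libraries alone, so that pass is not support. The causes of these shifts between settings were not tested.

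Counts of all genes higher and lower (398 and 156 for P2.5, 57 and 85 for E15.5) moved with the scale. A pseudocount of 0.1 gave 651 and 306 for P2.5 with 122 and 142 for E15.5, and a pseudocount of 5 gave 141 and 42, and 18 and 22. A filter at FPKM 5 left 94 lower at P2.5 and 47 at E15.5. Centring gave 235 lower at P2.5, rescaling 552 lower at P2.5 and 112 higher at E15.5 (593 and 110 without flagged rows), and the lower fold threshold gave 1900 and 791 for P2.5 with 376 and 299 for E15.5. By limma, where 0 and 0 passed, a pseudocount of 0.1 gave 8 higher and 3 lower, a filter at 5 gave 37 and 13 with 1 member, centring 18 and 9, and the GC and length adjustment 28 and 11. The limma fit with all status flags and the rescaling without flagged rows were chosen after seeing the data.

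The stage term of the limma fit sets each dKO library against the dHET library of its stage; the labels carry no replicate numbers for any other block. Leaving out a library was not run, as no residual degrees of freedom would remain. Depth limits Hcn2 at E15.5, with about 94 fragments in dKO and 63 in dHET.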
